A study of Mus musculus with 483 samples.

Results

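The genes described here carry cholesterol out of cells or handle lipid in the lysosome. They are the exporters Abca1 and Abcg1, apolipoprotein E (Apoe), the sterol receptor Nr1h2 and its target Mylip, the lipoprotein receptor Scarb1, the lysosomal genes Lipa, Npc1 and Npc2, and the ceramidase Acer2. They are 10 of the 46078 genes of the table, and all 10 are among the 15204 genes measured, that is with a read in at least 5% of cells. The set was chosen by a mixture of function and measured values: Abca1, Lipa and Acer2 were already known to be lower in the treated cells of these data. Their treatment differences are therefore given as a description and support nothing.

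The data are read counts of 483 single mouse cells made by Smart-seq2, a method that amplifies and reads whole transcripts of 1 cell per well. Cells were sorted as positive for CD31 and Kit and negative for CD45 from the AGM, the embryonic aorta with the gonads and mesonephros around it, where blood stem cells first arise. One group is labelled Ctrl and the other aDll4-treated. Both groups went through the same sort, and the labels name no genotype, strain, embryo or culture and do not explain aDll4, so each treatment is 1 sample and no difference was tested. The labels place each cell in 1 of 7 clusters made by ICGS, a clustering method, and the library numbers fall into 2 blocks, below 20000 (block 1) and above 22000 (block 2). Ctrl cells of clusters 1 to 7 numbered 97, 73, 31, 10, 6, 14 and 8, and treated cells 86, 72, 36, 12, 7, 19 and 12. The submitters clustered these same cells, so differences between clusters are descriptions.

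Cells lose surplus cholesterol through ATP-driven exporters in the plasma membrane, which hand it to apolipoproteins. Liver X receptors (LXR), nuclear receptors bound by oxidised sterols, switch on these exporters, Apoe and Mylip. Cholesterol taken up in lipoproteins is freed in the lysosome and passed to the rest of the cell by the Niemann-Pick proteins. In zebrafish embryos, cholesterol export from the endothelium is known to bear on Notch signalling and blood stem cell emergence.

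The sequences before the start sites of Abca1, Lipa and Acer2 are shown because these genes had the lowest treated to Ctrl ratios of the set. Each is the 250 bases before the RefSeq start on GRCm38.p6 (the mm10 build), written 5′ to 3′ on the strand of the gene. The Abca1 window is chr4:53159896-53160145 (minus strand), the Lipa window chr19:34527475-34527724 (minus strand) and the Acer2 window chr4:86874164-86874413 (plus strand). Capitals mark an E-box (CACGTG) and a match to a DR4 element, the paired half-sites that LXR binds; the windows of Lipa and Acer2 hold neither.
Abca1: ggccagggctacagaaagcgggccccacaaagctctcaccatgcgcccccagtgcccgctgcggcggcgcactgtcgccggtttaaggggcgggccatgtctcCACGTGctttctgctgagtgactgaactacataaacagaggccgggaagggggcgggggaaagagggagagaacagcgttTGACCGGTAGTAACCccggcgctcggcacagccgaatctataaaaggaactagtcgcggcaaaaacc
Lipa: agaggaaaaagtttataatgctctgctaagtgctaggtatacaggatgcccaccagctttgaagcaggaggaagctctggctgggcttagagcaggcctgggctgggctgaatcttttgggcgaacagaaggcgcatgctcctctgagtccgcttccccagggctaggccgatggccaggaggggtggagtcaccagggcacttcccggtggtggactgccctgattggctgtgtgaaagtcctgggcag
Acer2: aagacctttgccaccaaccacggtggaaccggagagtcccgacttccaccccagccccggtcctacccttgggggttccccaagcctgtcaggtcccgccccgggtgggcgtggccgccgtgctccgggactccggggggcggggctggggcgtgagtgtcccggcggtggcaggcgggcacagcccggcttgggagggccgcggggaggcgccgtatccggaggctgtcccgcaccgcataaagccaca

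The DR4 pattern searched was GGTNA, 5 free bases and GGTCA, on both strands like the other patterns, and it was loosened to this form after the Abca1 sequence had been read. It is in 58 of 32851 promoters of the RefSeq table (0.177%). In Abca1 it begins 67 bases before the start and lies on the opposite strand and downstream of the E-box, which 6.02% of promoters hold. Of the 10 genes, 7 were searched, with 9 promoters in all. Abcg1 and Scarb1 have no entry, and member promoters on chromosome 18, where Npc1 lies, were left out of the search. Among these 7, no other gene held the E-box or the DR4 pattern, and 0 held the half-site AGGTCA (14.02% of promoters). TGGGAA, the core bound by the Notch factor RBPJ and found in 21.6% of promoters, was in Mylip only. GGGCGG, the GC box (32.7%), was in Abca1, Mylip, Npc2 and Acer2, and CCAAT (33.8%) in Mylip, Lipa and Npc2. None of these 6 patterns was in a window of Apoe or Nr1h2. The windows of Abca1, Lipa and Acer2 were 61.6%, 58% and 73.2% G and C, against a median of 52.4% over the table. A match is a description of these letters, not of binding.

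Over all cells the groups were close in depth. Reads assigned to genes ranged from 136928 to 2870618 per Ctrl cell (median 900286) and from 123097 to 2451790 per treated cell (median 869802). Within some clusters the medians differed more, as in cluster 3 (697405 in Ctrl, 590697 in treated cells) and cluster 6 (833246 and 1197645). The median cell had 5937 genes with a read in cluster 3, against 7795 in cluster 1. Shares are not matched for depth unless cells were thinned to the same number of reads. Levels are given in CPM, the reads of a gene summed over a group's cells and scaled to that group's total, with a 95% Poisson interval. A share counts cells with at least 1 read and has a 95% Clopper-Pearson interval, both exact. Amplified reads are not independent molecules, and the Poisson intervals cover the counting of reads only. Intervals of shares and of their differences cover the number of cells counted. Neither covers the spread between embryos, so no interval is a test of treatment. Clusters 1 to 3 carried the endothelial markers, with all 9 detected and sums of 8126 CPM (Ctrl) and 7794 CPM (treated). The same sum was 323 CPM in clusters 4 to 7 (38 and 50 cells). Clusters 4 and 5 carried mesenchymal markers (3875 CPM) and cluster 5 smooth muscle markers (5762 CPM). Clusters 6 and 7 carried blood markers (1394 CPM), and cluster 7 megakaryocyte markers (10583 CPM). Over all cells the Ctrl and treated endothelial sums were 6847 and 5973 CPM, and the megakaryocyte sums 319 and 763 CPM. The part of cell type shares in any difference over all cells was not tested, so values within clusters stand beside them. In bulk sums such as these, fewer expressing cells and less RNA per cell cannot be told apart, which is why shares and levels per cell are also given.

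Sex differed between the groups within blocks. With 10 reads as the minimum, block 1 had 85 Xist-positive and 77 Y-positive Ctrl cells but 0 Xist-positive treated cells, and most treated cells there were Y-positive. Block 2 had 25 Xist-positive and 29 Y-positive Ctrl cells, and 61 and 0 treated cells. Treatment and the mix of embryos cannot be told apart in these data. Ratios among Y-positive cells of block 1 and among Xist-positive cells of block 2 are also given for the main genes. They match sex only, since the labels name no embryo. Dll4 itself went from 356 CPM (Ctrl) to 177.2 CPM (treated), that is by -1.0 on the log2 scale (block 1 -1.15, block 2 -0.46).

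Abca1, Lipa and Acer2, the genes with the lowest ratios, were 1.77, 1.79 and 1.73 times as high in Ctrl as in treated cells. Of the 10 genes, 4 had a log2 ratio of treated over Ctrl of -0.5 or lower over all cells (Abca1, Lipa, Npc1 and Acer2), against 6.48% of measured genes. At 0.5 or higher there were 0, against 5.87%, and 9 of 10 were below 0, against 47.8%. The median log2 ratio of the 10 was -0.34, and that of all measured genes 0.012. In both blocks 6 genes were below 0 (Abca1, Nr1h2, Mylip, Scarb1, Lipa and Acer2), against 24.7% of measured genes. The library numbers were also divided into 6 runs of 96 numbers, each with both treatments. Only Abca1 and Acer2 of the 10 were below 0 in 6 of 6 runs, as were 1.97% of measured genes. These counts follow from how the set was chosen and are read no further.

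**Figure D1:**
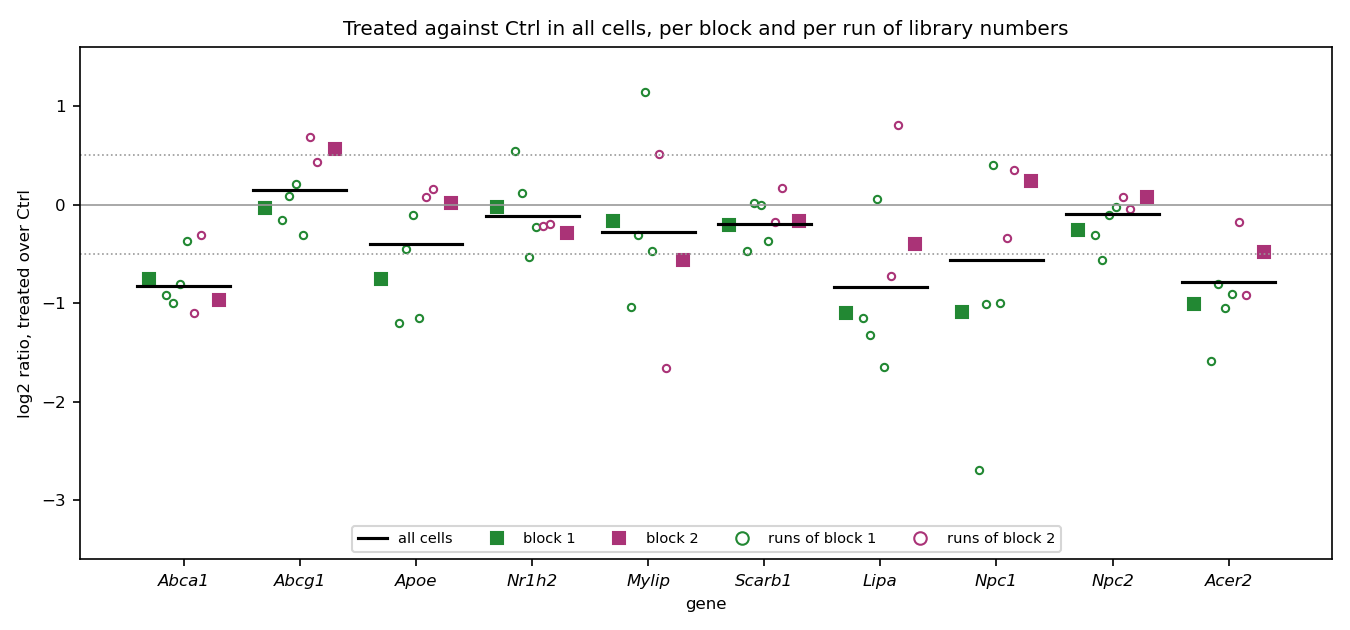
Log2 ratio of treated over Ctrl summed CPM (1 CPM added to both) for each gene over all cells (black bar), per block (squares) and per run of 96 library numbers (open circles); dotted lines mark -0.5 and 0.5. All 6 circles of Abca1 and Acer2 lie below 0, while those of Npc1 spread from -2.69 to 0.40.

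Abca1 (ENSMUSG00000015243, mm10 chromosome 4, 53030787 to 53159895, minus strand) encodes the transporter that loads cholesterol onto lipid-poor apolipoprotein. It marked the endothelial clusters. Its level was 113.97 CPM in cluster 1, 73.4 CPM in cluster 2 and 47.5 CPM in cluster 3, each apart from the next by its counting interval. In cluster 5 it was 5.07 CPM, most of it from 1 cell, and in clusters 4, 6 and 7 it was at most 0.977 CPM. Cells with a read made up 90.2% of cluster 1, 79.3% of cluster 2 and 50.7% of cluster 3. In clusters 4 to 7 together 20.5% had a read, but 59.1% of the cells of these clusters had a read of the endothelial cadherin Cdh5 (5.89 CPM, against 352 CPM and 98.7% in clusters 1 to 3). Median depth was 1019824 reads there and 849476 in clusters 1 to 3. The share of Abca1 in clusters 4 to 7 lay below that of Cdh5 and is not read as expression; the source of such reads was not tested.

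Within clusters 1 to 3 the level of Abca1 per cell ran from 0 to 961 CPM in Ctrl cells, with a median of 65.5 CPM. In treated cells it ran from 0 to 647 CPM, with a median of 27.8 CPM. The ranges overlapped over most of their length, and the treated cells sat lower at the first quartile (0.65 against 3.66 CPM), the median and the third quartile (116.2 against 144.5 CPM). Summed levels in these clusters were 109.6 CPM for Ctrl (108.1 to 111.1) and 67.9 CPM for treated cells (66.6 to 69.1), which gives a log2 ratio of -0.68. By cluster it was -0.52 in cluster 1, -0.76 in cluster 2 and -1.65 in cluster 3. The cluster 3 value rests on few cells, with per-cell medians of 1.03 CPM (31 Ctrl cells) and 0 CPM (36 treated cells). There 1 Ctrl cell held 27.6% and 1 treated cell 36.5% of the summed per-cell level of its group. In cluster 1 the share of cells with a read was not lower in treated cells (88.7% in Ctrl, 91.9% in treated), whereas in cluster 2 it was 86.3% and 72.2%, a difference of -14.08 points (Newcombe 95% interval -26.89 to -0.82).

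Over all cells the Abca1 level was 91.9 CPM for Ctrl (90.7 to 93.2) and 51.4 CPM for treated cells (50.5 to 52.4). By run, Ctrl levels were 106.1, 111.3, 88.3, 85.3, 90.6 and 46.03 CPM for runs 1 to 6. Treated levels were 55.8, 55.1, 49.9, 65.9, 41.7 and 36.9 CPM. Each treated value was below the Ctrl value of its run, and run 6 of Ctrl fell inside the treated range. Block 1 gave a log2 ratio of -0.76 and block 2 one of -0.97. It was -1.04 among Y-positive cells of block 1 and -1.34 among Xist-positive cells of block 2.

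Abcg1 (ENSMUSG00000024030, chromosome 17, 31057675 to 31117988, plus strand), which exports cholesterol to mature high-density lipoprotein, had another distribution. It was at 38.7 CPM in cluster 2, 37.3 CPM in cluster 1, 35.04 CPM in cluster 6 and 31.1 CPM in cluster 7, with overlapping intervals from each to the next. The values of clusters 6 and 7 pool unlike groups: cluster 6 had 8.93 CPM in 14 Ctrl cells and 50.1 CPM in 19 treated cells, and cluster 7 had 34.1 and 28.9 CPM. Abcg1 thus reached the blood clusters, where Abca1 was at most 0.195 CPM, but in Ctrl cluster 6 it was below clusters 1 and 2 (33.7 and 44.2 CPM). Cluster 3 was lower (15.7 CPM), and clusters 4 and 5 had 1.56 and 0.26 CPM. Over all cells the Ctrl and treated levels were close (30.1 and 33.5 CPM, log2 ratio 0.15). Block 1 gave -0.031 and block 2 gave 0.56, and 4 of 6 runs were above 0. The share of cells with a read differed by -2.18 points (-10.58 to 6.27). Among the cells of clusters 1 to 3, both exporters were read in 62.7% of the Ctrl and 55.7% of the treated cells, a difference of -7.02 points (-16.52 to 2.66).

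**Figure D2:**
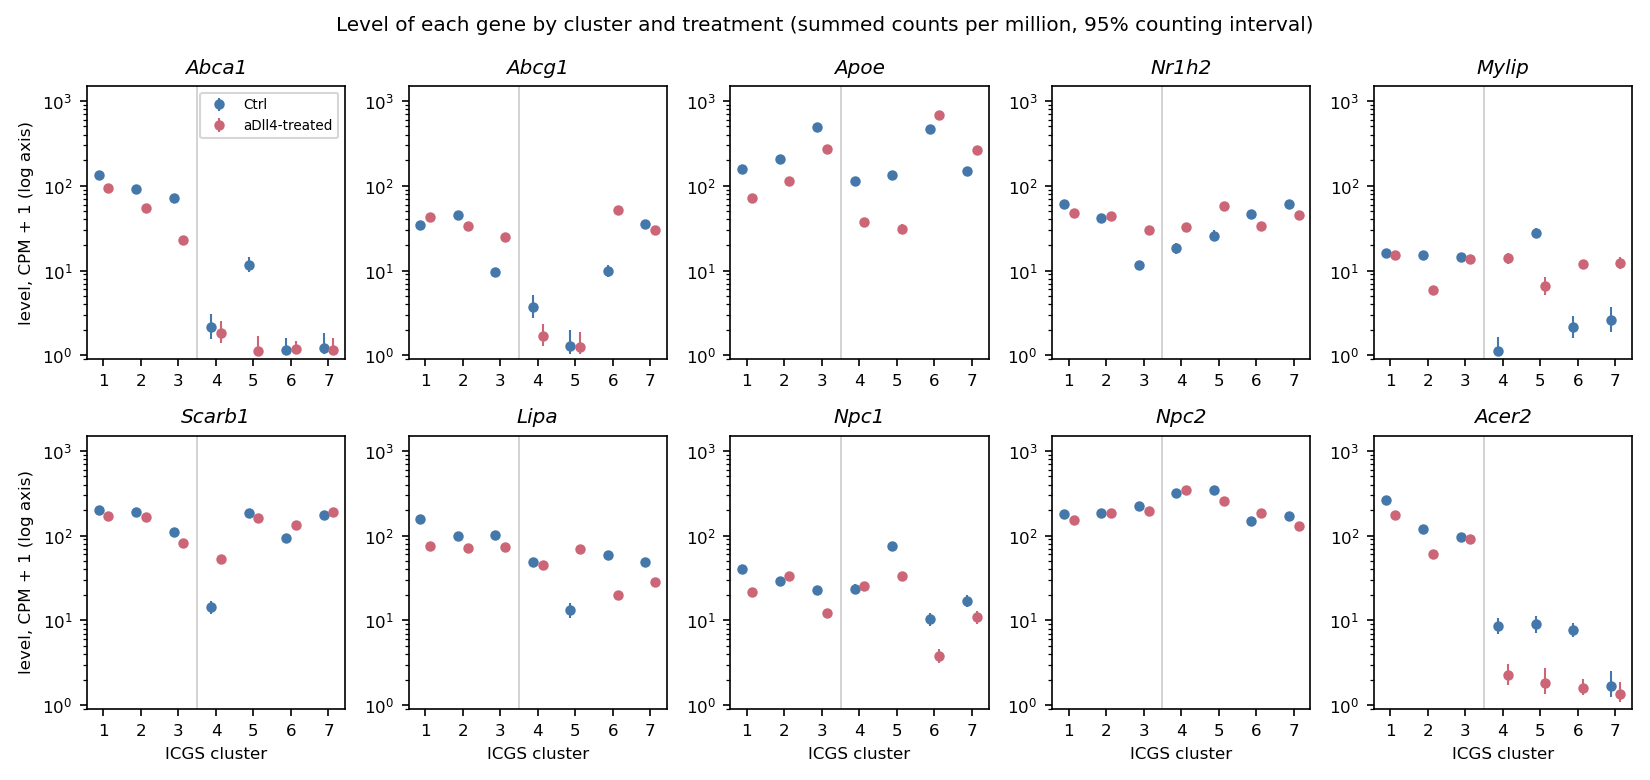
Summed level of each gene in CPM + 1 (log axis) by ICGS cluster in Ctrl (blue) and treated cells (pink), with Poisson 95% counting intervals; the grey line separates clusters 1 to 3 from 4 to 7. Abca1 and Acer2 are near the bottom of the axis in clusters 4 to 7, while Apoe peaks in cluster 6 and Npc2 in cluster 4.

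Apoe (ENSMUSG00000002985, chromosome 7, 19696109 to 19699188, minus strand), the apolipoprotein that accepts exported cholesterol, was the most abundant of the 10 per kb of merged exon (92.95 CPM per kb over all cells). Merged exon is the length covered by the exons of all annotated transcripts of a gene, not the length of 1 transcript. Its level was highest in cluster 6 (609 CPM), then cluster 3 (385 CPM), cluster 7 (213.1 CPM), cluster 2 (162.5 CPM), cluster 1 (116.8 CPM), cluster 5 (78.4 CPM) and cluster 4 (68.7 CPM). Each step in this order exceeded the counting intervals. Cells varied widely. In clusters 1 to 3 the Ctrl cells ran from 0 to 4161 CPM with a median of 49.1 CPM, and the treated cells from 0 to 1703 CPM with a median of 4.96 CPM.

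Ratios of Apoe differed in sign between cell types, which was not tested further. In clusters 1 to 3 the level was 222.2 CPM for Ctrl (220.04 to 224.3) and 114.4 CPM for treated cells (112.8 to 116.03). The log2 ratio of -0.95 comprised -1.15 in cluster 1, -0.87 in cluster 2 and -0.87 in cluster 3. Blocks 1 and 2 gave -1.44 and -0.33 in cluster 1, and -0.63 and -1.53 in cluster 2. The share of cells with a read was lower in treated cells in cluster 1 (79.4% in Ctrl, 74.4% in treated) and cluster 2 (82.2% and 73.6%). In cluster 3 it was higher (64.5% and 75%). In clusters 6 and 7 the level was 338 CPM for Ctrl against 535 CPM for treated cells, with a read in 72.7% of the 22 Ctrl and 93.5% of the 31 treated cells. Pooled over all cells the ratio was -0.40 (block 1 -0.75, block 2 0.019). The share of all cells with a read differed by -0.75 points (-8.32 to 6.85), and after each cell was thinned to 120000 reads the shares were 64.9% and 56.97%. Macrophages also make Apoe, and the sort took CD45-negative cells. Macrophage markers summed to 10.1 CPM (Ctrl) and 11.4 CPM (treated) in clusters 1 to 3, with 8 of 12 detected there, and to 241.1 CPM in clusters 6 and 7. The latter was mostly Fcer1g (65.1 CPM in cluster 6 and 328.9 CPM in cluster 7) and Lyz2 (24.5 and 115.7 CPM), while Csf1r and Adgre1 were at 0 there. C1qa, C1qb and C1qc were at 0 in all cells.

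Nr1h2 (ENSMUSG00000060601, chromosome 7, 44549616 to 44553951, minus strand) encodes LXR beta. It was present in every cluster, from 19.1 CPM in cluster 3 to 54.2 CPM in cluster 1. Ctrl cells had 45.2 CPM and treated cells 41.8 CPM, so that the log2 ratio was -0.11. The share of cells with a read differed by 6.80 points the other way (-1.24 to 14.74). In cluster 3 this reached 29.75 points (6.10 to 48.95), from 25.8% of 31 Ctrl to 55.6% of 36 treated cells, with levels of 10.5 and 28.8 CPM. One treated cell held 43.99% of the latter group's summed per-cell level.

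Mylip (ENSMUSG00000038175, chromosome 13, 45389742 to 45412022, plus strand) encodes IDOL, a ubiquitin ligase that removes the LDL receptor and is switched on by LXR. It was the most sparsely detected, with a read in 26.1% of cells and a median of 0 CPM in both groups. Levels ran from 7.18 CPM in cluster 7 to 15.5 CPM in cluster 5, and 80.9% of the summed per-cell level of cluster 5 came from 1 cell. The log2 ratio was -0.28 over all cells (13.1 and 10.6 CPM). It was -1.37 in cluster 2, where the share with a read was 31.5% (Ctrl) and 16.7% (treated), a difference of -14.84 points (-28.11 to -0.87), and -0.05 in cluster 1. In clusters 6 and 7 it was the other way, with 1.33 CPM and 18.2% of 22 Ctrl cells against 10.99 CPM and 48.4% of 31 treated cells.

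Scarb1 (ENSMUSG00000037936, chromosome 5, 125277087 to 125341094, minus strand), the receptor that exchanges cholesterol with high-density lipoprotein, was broadly expressed. It was at 184.5 CPM in cluster 1, 183.4 CPM in cluster 7, 177.8 CPM in cluster 2 and 170.7 CPM in cluster 5, neighbours whose intervals overlapped. Clusters 6, 3 and 4 were lower (116.8, 95.4 and 35.6 CPM). A read was present in 86.6% of Ctrl and 86.9% of treated cells, a difference of 0.27 points (-5.82 to 6.40). In clusters 1 to 3 the per-cell median was 144.9 CPM (Ctrl) against 116.1 CPM (treated), and the summed ratio was -0.24. The ratio over all cells was -0.20, and it was -0.20 in block 1 and -0.17 in block 2.

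**Figure D3:**
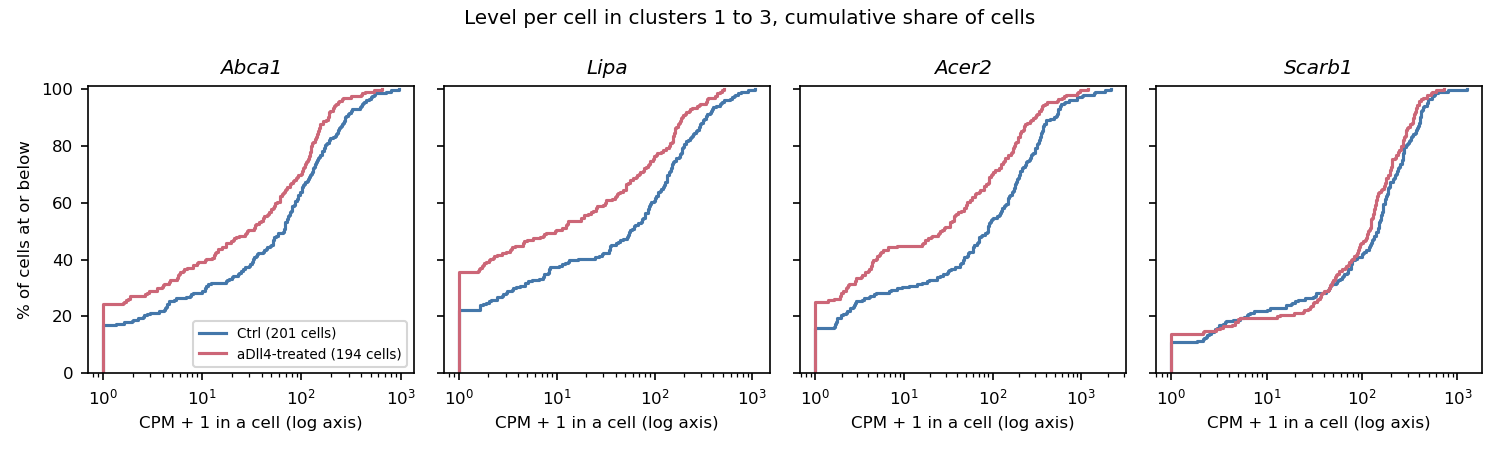
Cumulative share of cells at or below each level (CPM + 1 in a cell, log axis) in clusters 1 to 3, for Ctrl (blue) and treated cells (pink). The treated curves of Abca1, Lipa and Acer2 lie above the Ctrl curves, that is at lower levels (Lipa medians 55.03 and 8.69 CPM), while the curves of Scarb1 run close together.

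Lipa (ENSMUSG00000024781, chromosome 19, 34492318 to 34527474, minus strand) encodes lysosomal acid lipase, which frees cholesterol from the esters of lipoproteins. It was at 119.97 CPM in cluster 1 and at 86.5 and 84.7 CPM in clusters 3 and 2, whose intervals overlapped. Clusters 4 to 7 had 33.3 to 45.8 CPM. In clusters 1 to 3 the Ctrl cells ran from 0 to 1060 CPM with a median of 55.03 CPM. The treated cells ran from 0 to 510 CPM with a median of 8.69 CPM. The upper quartile was 164.6 CPM (Ctrl) against 94.1 CPM (treated), so the treated cells were lower through the middle and top of the range, with overlap throughout.

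The difference of Lipa was larger in cluster 1 (log2 ratio -1.06, 157.8 and 75.4 CPM) than in cluster 2 (-0.46) and cluster 3 (-0.48), and larger in block 1 (-1.10) than in block 2 (-0.40). These differences between clusters and blocks were not tested. Over all cells the level was 114.8 CPM for Ctrl (113.4 to 116.2) and 63.6 CPM for treated cells (62.6 to 64.7). The share with a read was 75.7% for Ctrl (69.8 to 81.03) and 62.7% for treated cells (56.3 to 68.8), which differ by -13.03 points (-21.01 to -4.80). By run, Ctrl levels were 105.9, 127.5, 71.01, 169.06, 131.5 and 47.3 CPM and treated levels 47.2, 50.4, 73.8, 53.08, 79.01 and 83.8 CPM. Runs 1, 2, 4 and 5 were lower in treated cells, run 3 was nearly level (0.056) and run 6 was higher (0.81). The ratio was -1.31 among Y-positive cells of block 1 and -0.36 among Xist-positive cells of block 2.

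Npc1 (ENSMUSG00000024413, chromosome 18, 12189692 to 12236400, minus strand) is the membrane protein that moves cholesterol out of the lysosome. Of its 11317 exon bases, 511 overlap the exons of Rmc1 on the other strand (Rmc1 was at 51.05 CPM). Smart-seq2 does not mark strand, so reads there cannot be told apart. Npc1 was the lowest of the 10 per kb of merged exon (2.34 CPM per kb), a rank that need not hold per transcript. It had 30.7 and 30.05 CPM in clusters 1 and 2 and 5.14 CPM in cluster 6. Cluster 5 had 51.4 CPM, but 1 cell held 61.7% of its summed per-cell level and the median cell had 0.95 CPM. Levels were 31.8 CPM for Ctrl and 21.1 CPM for treated cells (log2 ratio -0.57, or -0.25 without run 1), and 58.6% and 48.4% of cells had a read, a difference of -10.22 points (-18.88 to -1.32). The ratio was -1.09 in block 1 but 0.24 in block 2, and 0.99 among Xist-positive cells of block 2. Over all cells of block 2 only the summed level was higher in treated cells. The share with a read was 55.6% for Ctrl and 50% for treated cells, and the per-cell median 1.76 and 0.38 CPM. There 1 treated cell at 557 CPM held 20.7% of the summed per-cell level. Among Xist-positive cells of block 2 the share was higher too, at 32% of 25 Ctrl and 47.5% of 61 treated cells.

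Npc2 (ENSMUSG00000021242, chromosome 12, 84754562 to 84773152, minus strand), the soluble protein that hands cholesterol to NPC1, was found in 94.8% of cells. It was highest in the mesenchymal clusters 4 (330 CPM) and 5 (297 CPM) and between 145.5 and 207.8 CPM elsewhere. Ctrl cells had 193.3 CPM and treated cells 180.7 CPM, which is -0.097 on the log2 scale. The share of cells differed by 0.52 points (-3.61 to 4.72). Lipa, Npc1 and Npc2 were read together in 47.3% of the Ctrl and 35.6% of the treated cells of clusters 1 to 3, a difference of -11.70 points (-21.10 to -1.98).

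Acer2 (ENSMUSG00000038007, chromosome 4, 86874396 to 86934822, plus strand) encodes the Golgi ceramidase, which splits ceramide into sphingosine, the precursor of sphingosine 1-phosphate. Like Abca1, it was low outside clusters 1 to 3. It stood at 222.7 CPM in cluster 1 and at 92.6 and 90.3 CPM in clusters 3 and 2, whose intervals overlapped. It was at most 4.16 CPM in clusters 4 to 7, where 38.6% of cells had a read, below the 59.1% with a read of Cdh5. In cluster 1 the Ctrl cells had a median of 177.7 CPM and the treated cells 78.9 CPM, with maxima of 1863 and 1197 CPM. Summed levels there were 262.8 and 175.3 CPM, a log2 ratio of -0.58, which the blocks did not share (-1.03 in block 1, with 81 Ctrl and 73 treated cells, and 0.35 in block 2, with 16 and 13). In cluster 2 they were 118.99 and 59.7 CPM (-0.98), with blocks that shared the sign but not the size. The ratio there was -0.29 in block 1 (60 Ctrl and 53 treated cells) and -2.52 in block 2 (13 and 19). In cluster 3 the summed levels were 94.8 and 90.1 CPM (-0.07), and 1 Ctrl cell at 2166 CPM held 48.01% of the summed per-cell level.

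Over all cells the level of Acer2 was 158.8 CPM for Ctrl (157.2 to 160.5) and 91.5 CPM for treated cells (90.2 to 92.7). The share of cells with a read was 79.1% for Ctrl (73.4 to 84.06) and 65.2% for treated cells (58.8 to 71.1), which differ by -13.92 points (-21.66 to -5.93). Runs 1 to 6 had Ctrl levels of 153.1, 173.8, 127.1, 154.9, 167.96 and 181.8 CPM and treated levels of 50.2, 98.6, 60.8, 82.2, 148.7 and 96.03 CPM. All treated values but that of run 5 lay below every Ctrl value. Block 1 gave -1.01 and block 2 gave -0.48. The ratio was -1.37 among Y-positive cells of block 1 and -0.72 among Xist-positive cells of block 2.

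**Figure D4:**
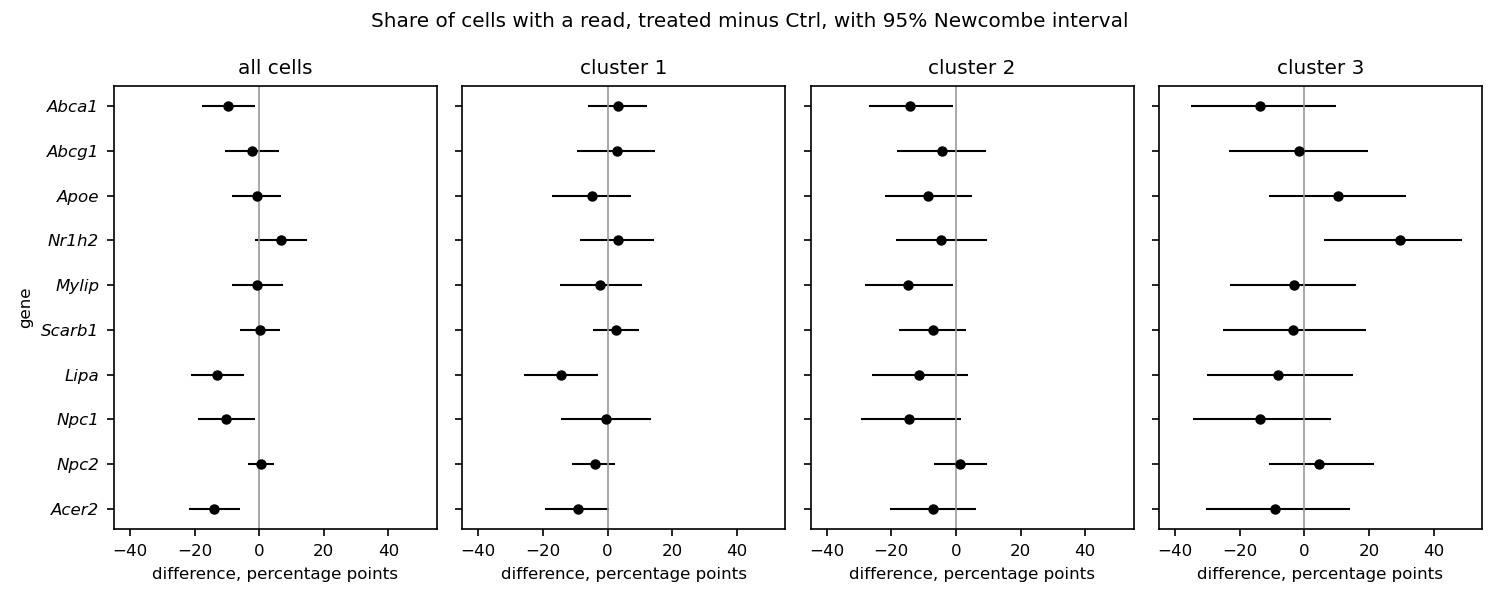
Difference in the share of cells with a read, treated minus Ctrl, in percentage points with Newcombe 95% intervals, in all cells and in clusters 1, 2 and 3. The intervals cover the number of cells only and are no test of treatment. Over all cells the differences of Abca1, Lipa, Npc1 and Acer2 are the lowest (-9.71 to -13.92 points), and in cluster 3 that of Nr1h2 is the highest (29.75 points).

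Within clusters 1 to 3 alone, Abca1, Apoe, Lipa and Acer2 had a log2 ratio of -0.5 or lower, 4 of 10 against 8.6% of measured genes. In cluster 1 the same 4 and Npc1 did (13.2% of measured genes), and in cluster 2 Abca1, Apoe, Mylip and Acer2 (13.8%). In block 1 it was Abca1, Apoe, Lipa, Npc1 and Acer2 (8.36%), and in block 2 Abca1 and Mylip (15.2%). Abca1 is the only gene of the 10 on all of these lists. After thinning each cell to 120000 reads, the shares with a read were 64.9% and 52.05% for Abca1, 65.3% and 50% for Lipa, 46.4% and 34.8% for Npc1 and 62.8% and 48.8% for Acer2 in Ctrl and treated cells.

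Joint detection of Abca1, Lipa and Acer2 is a description only, since each was chosen for a lower treated level. In clusters 1 to 3 all 3 were read in 57.2% of the Ctrl (50.06 to 64.2) and 38.1% of the treated cells, a difference of -19.07 points (-28.39 to -9.23). Within clusters the difference was -14.16 points in cluster 1 (-27.44 to -0.28), -21.48 points in cluster 2 (-36.08 to -5.38) and -17.03 points in cluster 3 (-34.72 to -0.18). Cells with none of the 3 numbered 3 in Ctrl and 5 in treated cells. The median number of the 10 genes with a read per cell was 8 in Ctrl and 7 in treated cells.

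From cell to cell the 10 genes moved together only weakly. The Spearman correlation over the 395 cells of clusters 1 to 3, which share libraries and depth effects, ran from -0.15 to 0.27 over the 45 pairs, with a median of 0.077. The highest was Apoe with Lipa (0.27), then Lipa with Acer2 (0.24), and Abca1 with Acer2 had 0.16. The genes ranked most alike among 9425 genes were Fam13c (0.33) and the laminin gene Lama4 (0.33) for Abca1. For Lipa they were the hypoxia factor gene Epas1 (0.29) and Sparcl1 (0.29). For Acer2 they were the glucose transporter Slc2a1 (0.45), the VEGF receptor Flt1 (0.40) and Igfbp3 (0.39). The next for Lipa were Zdhhc9, Vegfc and the Notch feedback gene Nrarp (0.28 each). Treated to Ctrl log2 ratios of these Lipa neighbours were -0.25 for Epas1, -0.48 for Sparcl1, -0.15 for Zdhhc9, -1.25 for Vegfc and -0.90 for Nrarp. Those of the Abca1 neighbours were -0.50 for Fam13c and -0.17 for Lama4. For Acer2 they were -0.22 for Slc2a1, -0.27 for Flt1 and -0.69 for Igfbp3. The ranking pooled both treatments, and Abca1, Lipa and Acer2 were chosen for lower treated levels, so these ratios support nothing. The Spearman correlation with Dll4 was 0.27 for Abcg1, 0.25 for Lipa, 0.24 for Abca1 and Scarb1 and 0.23 for Acer2. It was 0.21 for Nr1h2, 0.13 for Npc1, 0.097 for Apoe, 0.0067 for Npc2 and -0.009 for Mylip. With the number of genes read per cell it was 0.27 for Scarb1, 0.21 for Abcg1 and Lipa, 0.13 for Acer2 and 0.083 for Abca1. Both treatments are pooled here and Dll4 was itself lower in treated cells, so these values are read no further.

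Other genes of the same pathways were taken from 6 lists. Of 14 measured LXR target genes, 8 were lower (47.8% of all measured genes were) and 6 higher. On the log2 scale 3 were at -0.5 or lower (6.48% of all) and 1 at 0.5 or higher (5.87%). The lowest were Abca1 (-0.83) and lipoprotein lipase Lpl (-0.75, 13.1 and 7.37 CPM, but 0.12 in clusters 1 to 3), and the highest Scd1, a fatty acid desaturase (0.83, 6.40 and 12.1 CPM) and Arl4c (0.28). The list's median was -0.15 over all cells but 0.034 in clusters 1 to 3. Of 11 receptors and partners, 5 were lower (47.8% of all measured genes were) and 6 higher (median 0.095). The lowest were the coactivator Ncoa1 (-1.64) and Nr1h3, which encodes LXR alpha (-0.75, at 2.86 and 1.30 CPM). The highest were Rxra (0.84) and Pparg (1.17, at 2.59 and 7.11 CPM). Rxra was at 1.15 in block 1 but at 0.0085 in block 2. Detection was sparse for Pparg (5.02% in Ctrl, 8.61% in treated) and for Nr1h3 (5.02% and 5.33%).

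Of 25 measured genes of the lysosomal list, 19 were lower (47.8% of all measured genes were), and 4 were at -0.5 or below (6.48% of all), among them Pla2g15 and the described Lipa and Npc1. Another 6 were higher, and 0 reached 0.5. Lipa was chosen for its lower value. The median was -0.19 over all cells, -0.25 in block 1, -0.15 in block 2 and -0.29 in clusters 1 to 3. Pla2g15, a lysosomal phospholipase, went from 36.9 CPM (Ctrl) to 20.6 CPM (treated), with -0.83 in each block. The highest was Smpd1, acid sphingomyelinase (0.19). Lipoprotein receptors and carriers had 13 of 19 lower, against 47.8% of all measured genes, with a median of -0.11. They ran from the fatty acid receptor Cd36 (-0.70) and Gpihbp1 (-0.62) to Abca2 (0.15) and Lrp1 (0.59).

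Of 18 measured genes of ceramide and sphingosine 1-phosphate, 13 were lower (47.8% of all measured genes were) and 5 higher (median -0.10). Acer2 (-0.79) and the sphingosine kinase Sphk2 (-0.58, 24.7 and 16.2 CPM) were lowest, and Asah2 (0.65) and the sphingosine 1-phosphate exporter Spns2 (0.66, 19.2 and 31.1 CPM) highest. Targets of SREBP2, the factor that switches on cholesterol synthesis and uptake, had 15 of 17 genes above 0 and a median of 0.13. The other 2 were below 0, against 47.8% of all measured genes, and were so in both blocks, against 24.7%. Differences were small, with 1 gene past 0.5 (5.87% of all) and 1 past -0.5 (6.48%). Their median was 0.034 in block 1 and 0.32 in block 2. The highest were Lss (0.50) and Mvd (0.40), both enzymes of sterol synthesis, and the lowest Dhcr7 (-0.57) and Mvk (-0.18). All measured genes together had a median of 0.012.

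**Figure D5:**
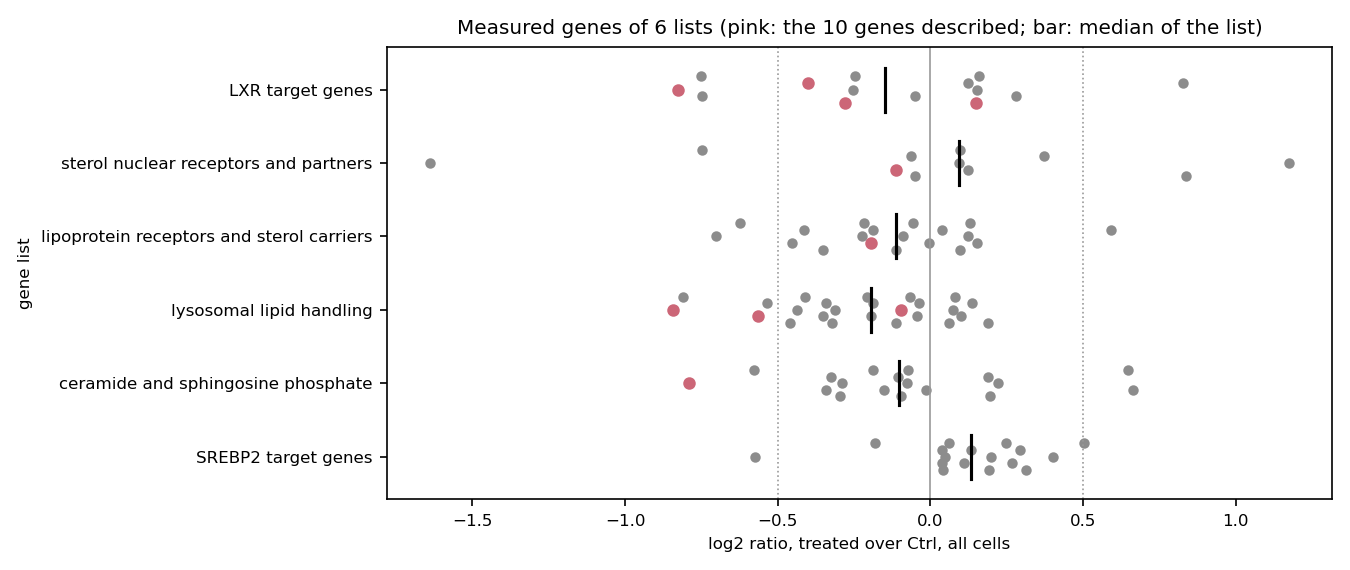
Log2 ratio of treated over Ctrl over all cells for every measured gene of the 6 lists (points; pink, the genes described above; bar, the list's median; dotted lines at -0.5 and 0.5). The lysosomal median is -0.19 and the SREBP2 median 0.13; Ncoa1 at -1.64 and Pparg at 1.17 are the extremes.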

How the data were processed

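Per the submitters' processing notes, reads were aligned to mm10 with GSNAP and counted per gene with HTSeq 0.6.0. What annotation release and counting settings were used is not given in the sources used here. Deposited values are raw counts per gene and cell, used as deposited. No cell was removed, doublets were not called, and 0 columns were identical or unused. Symbols and positions came from GENCODE M21 (45143 of 46078 IDs matched), promoters from RefSeq. Groups (239 Ctrl and 244 treated cells, of which 201 and 194 were in clusters 1 to 3), clusters and library numbers came from the labels. Ratios are log2 of treated over Ctrl summed CPM with 1 CPM added, which understates differences of low genes. Scripts used Python 3.11.15, numpy 2.4.6, pandas 2.3.3, scipy 1.17.1 and matplotlib 3.10.9 and were tested on simulated data.

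The 10 genes, the 6 gene lists and the 9 marker lists were chosen with earlier results of these data known. From each gene list the 2 lowest and 2 highest ratios are named, save for items that are not reported here, and for Abca1, Lipa and Acer2 genes from the 5 most alike by Spearman correlation. Marker sums in clusters 1 to 3 were 7970 CPM for endothelium, 114 for blood, 10.7 for macrophages, 11.1 for megakaryocytes, 5.40 for erythroid cells, 27.6 for mesenchyme, 45.4 for smooth muscle, 3.0 for mesonephric epithelium and 2.9 for steroidogenic cells. Alternatives tried were other pseudocounts, scalings and detection minimums, each block, run and sex, and clusters 1 to 3.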

Additional observations from a re-analysis of the deposited data

Results flagged for a closer look

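Among 90 comparisons (10 genes in 9 pairs of groups), 4 had ratios of at least 0.5 on the log2 scale in opposite directions, and none of these differences was tested. How often other measured genes do so was not counted, so the number 4 is read no further. The log2 ratio of Npc1 was -0.714 in Y-positive cells of block 1 (26.9 CPM in 77 Ctrl, 16.04 CPM in treated cells). It was 0.986 in Xist-positive cells of block 2 (15.9 CPM in 25 Ctrl, 32.5 CPM in 61 treated cells). Shares with a read were 51.9% (Ctrl) and 50.3% (treated) in the former and 32% and 47.5% in the latter. In cluster 2, Npc1 was at -0.859 in block 1 (25.7 and 13.7 CPM) and 0.809 in block 2 (37.3 and 66.1 CPM). In block 2 of that cluster 1 of 19 treated cells held 38.1% of the summed per-cell level, and the median was lower in treated cells (13.4 CPM for Ctrl, 1.21 CPM for treated). Also in cluster 2, Abcg1 was at -0.618 in block 1 (52.7 and 33.9 CPM) and 1.19 in block 2 (12.9 CPM in 13 Ctrl, 30.6 CPM in 19 treated cells). In cluster 3, Acer2 was at -2.08 in block 1 (98.2 CPM in 13 Ctrl, 22.4 CPM in 20 treated cells) and 0.643 in block 2 (92.5 CPM in 18, 144.96 CPM in 16 cells). Shares with a read ran against both ratios, with 53.8% of Ctrl and 60% of treated cells in block 1 and 72.2% and 50% in block 2. A single Ctrl cell held 57.6% of the summed per-cell level of its group in block 2.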

How the results depend on the processing

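Over 20 alternatives, Abca1 (-1.34 to -0.61), Lipa (-1.31 to -0.36) and Acer2 (-1.37 to -0.48) kept log2 ratios below 0, and they were at -0.5 or below in 20, 18 and 19 of them. Npc1 was at -0.5 or below in only 11, was -0.25 without run 1, and changed sign in block 2 alone (0.24) and in Xist-positive cells of block 2 (0.99); the cause was not tested. Abcg1 had the other sign in 3 alternatives, Apoe and Npc2 in 2 each, and Nr1h2, Mylip and Scarb1 in 1 each. The median of the 10 genes was -0.34. It was -0.43 by the mean of log2(CPM + 1) over cells, -0.28 with a pseudocount of 10, -0.51 in block 1, -0.23 in block 2, -0.44 in clusters 1 to 3, -0.38 in Y-positive cells of block 1 and -0.067 in Xist-positive cells of block 2. In clusters 1 and 2 only, an alternative chosen after seeing the data, it was -0.45. Leaving out 1 run of library numbers gave -0.50 (run 3) to -0.22 (run 1). The number at -0.5 or below was 4 (6.48% of all measured genes were), but 2 in block 2 (15.2% of all there). The number at 0.5 or above was 0 (5.87% of all), but 1 in block 2 and 1 in Xist-positive cells of block 2. The share of all measured genes at 0.5 or above was not counted for these 2 settings. With any gene that had a read counted, 1678 genes (985 before) were at -0.5 or below and 1594 (892 before) at 0.5 or above; with a read required in 10% of cells the latter were 578. No paired analysis was possible because the results come from no test and the cell numbers shared by the labels only name cells; runs of library numbers are set side by side as values. Thinning to 120000 reads lowered every share, for example that of Acer2 from 72.05% to 55.7% and that of Mylip from 26.1% to 20.1%.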
